A study of Drosophila melanogaster with 6 samples.

Results

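The glutathione transferase genes of *Drosophila melanogaster* were examined in testes of *Pof* mutant and wild type males. A gene was taken as a member when its current symbol was Gst followed by a class letter (D, E, O, S, T or Z) and a number, and when a probe set of the array named that gene alone. This gave 34 genes on 36 probe sets, of 11983 genes on the array that had a probe set of their own. The family has 35 such symbols in the Release 6 gene table, and the remaining one, *GstE8*, had no probe set that names it alone and was not analysed here. The members were 11 delta, 13 epsilon, 3 omega, 1 sigma, 4 theta and 2 zeta genes.

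Testes were dissected from *Pof* mutant males (y1 w67c23; PofD119/PofD119) and from wild type males (y1 w67c23), and their total RNA was hybridised to Affymetrix *Drosophila* version 2 arrays. There were 3 arrays of each genotype, 6 in all, and each was made from a separate pool of 60 testes of males aged 0 to 24 h. The markers y1 w67c23 on the X chromosome are thus common to mutant and wild type, and the mutant is homozygous for the mutation in *Pof*, whose protein binds the small chromosome 4. The level of a gene is the deposited RMA value, a normalized log2 intensity, averaged over the probe sets of the gene. A difference is the mean of the mutant arrays minus that of the wild type arrays on this log2 scale. Levels below 6 are treated as close to background, since the study took 6 as the lowest level at which changes could be measured. Levels of different probe sets depend on the probes and were not set against each other.

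Glutathione transferases join the tripeptide glutathione to reactive or toxic molecules, which makes these more soluble and marks them for export from the cell. Insects carry large delta and epsilon classes, known for their part in resistance to insecticides and in the response to plant toxins and oxidative damage. The omega, sigma, theta and zeta classes are shared with vertebrates and include enzymes of pigment synthesis and of tyrosine breakdown. Many delta genes and many epsilon genes lie side by side in clusters, on chromosome arms 3R and 2R of the fly.

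*Pof* itself was at 10.38, 10.50 and 10.30 on the mutant arrays, against 12.98, 13.06 and 12.89 on the wild type arrays, a difference of -2.59 (standard error 0.092, limma adjusted p = 9.4e-05). Where its probe set lies relative to the mutation is not given, so this value checks the labels only in part. The array medians lay between 5.78 and 5.88. A principal component analysis placed the arrays numbered 2 of both genotypes away from the rest on its first axis (52.8% of the variance) and separated the genotypes on its second (31.5%). Of 11 measured germline markers of the testis, 8 were above 6, with *Mst87F*, *ocn* and *betaTub85D* above 13 on every array, and *vas*, *bam* and *aly* were below 6. Their mean level was 9.19 to 9.44 on the mutant arrays, against 9.42 to 9.59 on the wild type arrays, and *dj*, a sperm tail protein gene, was the one that passed, lower in the mutant. Of 4 measured somatic markers of the testis none passed and 3 had means below 6 in both genotypes. Markers of other tissues were also present: the 8 accessory gland genes, none of which passed, had a mean level between 12.98 and 13.19 on the mutant arrays, against 12.92 to 13.14 on the wild type arrays. The 5 haemocyte markers had means below 6 in both genotypes and did not pass, though *Hml*, *Pxn* and *srp* exceeded 6 on single arrays. In bulk samples of this kind, fewer cells of a type and less RNA per cell cannot be told apart.

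Of the 34 glutathione transferase genes, 2 fell in *Pof* mutant testes, *GstE1* and *GstE5*, and none rose. The other 32 did not pass the test, with adjusted p-values between 0.059 and 0.994. Over all genes tested 2.77% changed, 1.27% higher and 1.50% lower in the mutant (152 and 180 genes; 248 and 171 with the study's constant added to the mutant arrays), and at the share of 2.77% the expected number among 34 genes is 0.94. The family thus had 5.88% of its genes called, all of them epsilon genes. The median difference was 0.014 over the family and 0.0027 over all genes tested, and 18 members had a mean above wild type and 16 a mean below it. *GstD6*, *GstD7*, *GstE4* and *GstE12*, all just below wild type, lay above it once that constant was added. A fit that blocks on the replicate number called 5 members (14.7%, against 4.97% of all genes). Of these 1 was higher, against 2.11% of all genes, and 4 were lower, against 2.86%, and the additional ones were *GstD2*, *GstE13* and *GstT3*. Before adjustment 8 members had a p under 0.05 (23.5%, against 14.5% of all genes).

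**Figure D1:**
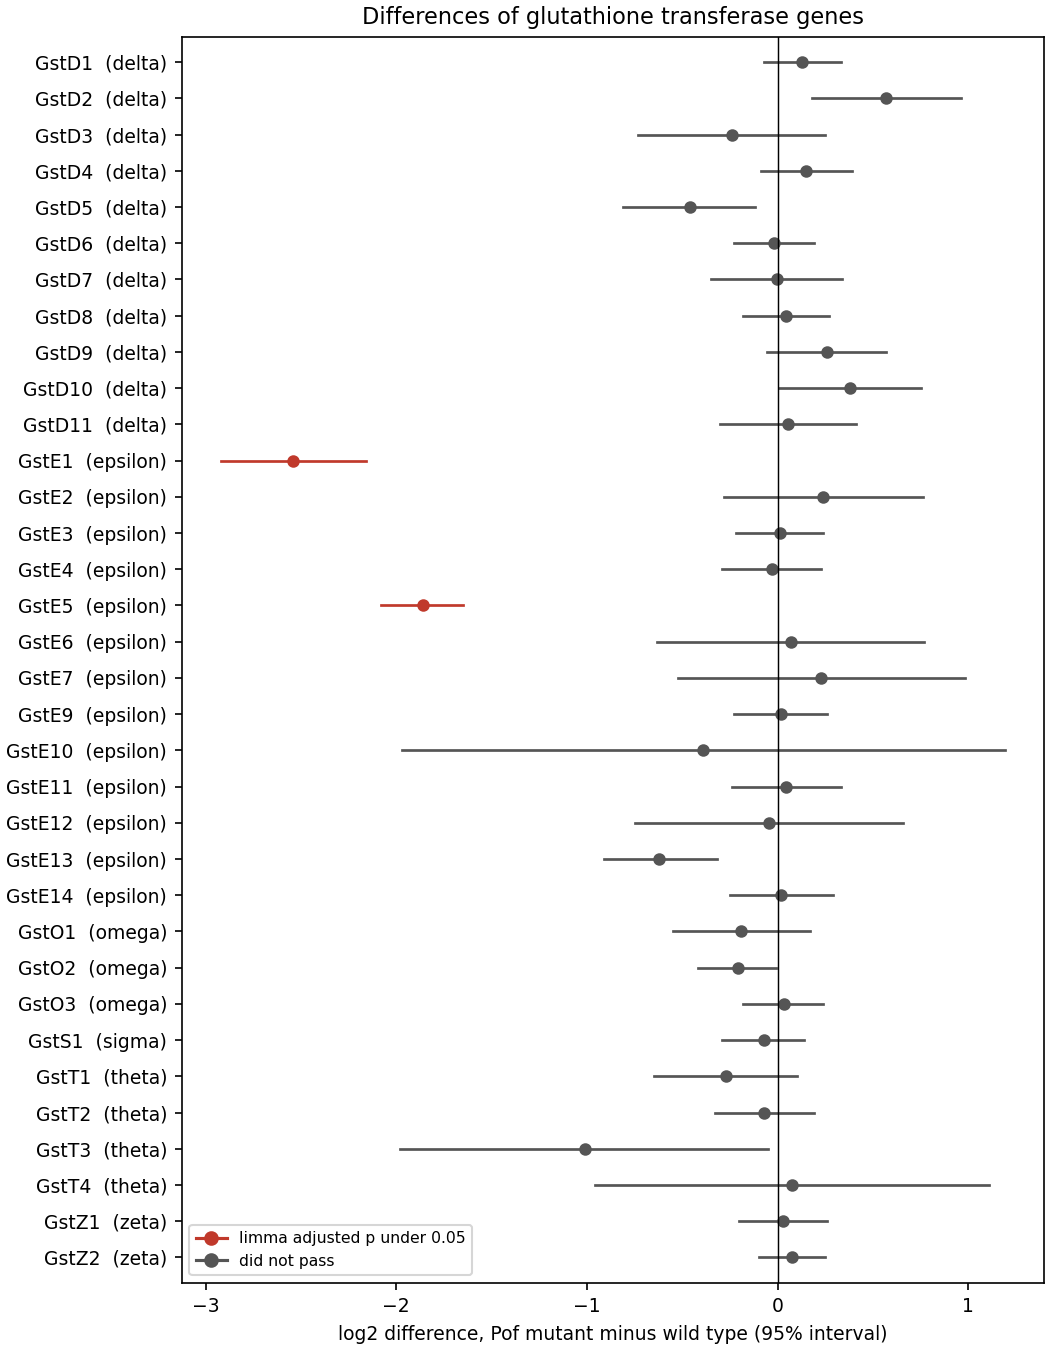
Log2 difference between *Pof* mutant and wild type testes (x axis) for each of the 34 glutathione transferase genes (y axis, with the class), as a point with its 95% interval from limma. *GstE1* and *GstE5*, in red, passed the test and lie at -2.54 and -1.86, and the widest intervals are those of *GstE10*, *GstT3* and *GstT4*.

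*GstE1* encodes an epsilon class enzyme that acts on 4-hydroxynonenal, a product of lipid peroxidation. On the mutant arrays it was at 7.21, 7.03 and 7.63, against 9.77, 9.92 and 9.80 on the wild type arrays. All 3 mutant arrays were below the lowest wild type array by more than the spread within either genotype, and the mutant levels stayed above 6. The means were 7.29 ± 0.31 in mutant and 9.83 ± 0.078 in wild type testes (SD, n = 3 each). The difference was -2.54 (standard error 0.16, 95% interval -2.92 to -2.16, limma adjusted p = 7.1e-04), which leaves 17.2% of the level in wild type. Pairs of arrays with the same replicate number differed by -2.56, -2.89 and -2.17. Without both arrays numbered 2 the difference was -2.37.

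*GstE5*, an epsilon class gene of the same cluster, was at 5.53, 5.59 and 5.64 on the mutant arrays, against 7.35, 7.43 and 7.56 on the wild type arrays. The groups did not overlap, and all mutant arrays were below 6, so the gene was close to background in the mutant and the size of the fall is uncertain. The means were 5.58 ± 0.056 in mutant and 7.45 ± 0.11 in wild type testes (SD, n = 3 each). The difference was -1.86 (standard error 0.088, 95% interval -2.08 to -1.65, limma adjusted p = 2.9e-04), which leaves 27.5% of the level in wild type. By pair of replicate numbers it was -1.82, -1.84 and -1.92, where the mutant side is close to background in every pair. It was -1.87 without both arrays numbered 2.

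Both falls passed in each of the 15 alternative analyses. The adjusted p of *GstE1* lay between 2.0e-05 and 0.0097 and that of *GstE5* between 2.6e-05 and 0.0041 in them. Of 6 measured genes of the fat body and haemolymph, 3 passed and were lower in the mutant, against 1.50% of all genes. These were *Lsp2*, *Fbp1* and *Fbp2*, which encode a larval storage protein and proteins of the larval fat body. Their differences were -1.62, -1.66 and -2.09 (adjusted p between 0.0097 and 0.032 in limma), with *Fbp1* and *Fbp2* below 6 in the mutant. *apolpp*, *fat-spondin* and *Yp1* did not pass, with differences of -0.0027, -0.23 and -0.008. The mutant arrays of *fat-spondin* all lay below its wild type arrays. *Yp1*, a yolk protein gene, was below 6 and so close to background in both genotypes, where a change would be hard to detect. The mean level of this list was 6.47 to 6.74 on the mutant arrays, against 7.35 to 7.88 on the wild type arrays, and *apolpp*, an abundant fat body transcript whose gene lies on chromosome 4, which POF binds, had a mean of 10.91 in either genotype. None of the 4 measured muscle genes passed. Their mean level was 6.79 to 6.97 on the mutant arrays, against 7.10 to 7.35 on the wild type arrays. *Mlc2*, *up* and *Act88F* had differences of -0.44, -0.53 and -0.39, and *Mlp60A* had one of 0.066. The arrays of the genotypes overlapped for all of them but *Mlc2*, and *Act88F* had means below 6 in both genotypes. *Gld* of the ejaculatory duct was at 10.66, 10.86 and 11.01 on the mutant arrays, against 11.67, 11.21 and 11.90 on the wild type arrays. Its difference of -0.75 did not pass (limma adjusted p = 0.121). None of the 4 measured genes of the ejaculatory duct and bulb passed. *Dup99B* had a difference of -0.12. *Ebp* and *EbpII* had differences of 0.36 (95% interval -1.97 to 2.69) and 0.42 (-1.79 to 2.63), with overlapping arrays, so their direction is uncertain. The mean level of the 4 genes was 11.64 to 13.13 on the mutant arrays, against 11.64 to 13.19 on the wild type arrays. The part of these tissues in the fall of *GstE1* and *GstE5* was not tested.

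In the order of genes on 2R the epsilon cluster runs *GstE10*, *GstE1*, *GstE2*, *GstE3*, *GstE4*, *GstE5*, *GstE6*, *GstE7*, *GstE8* and *GstE9*, with 2 pseudogenes between *GstE3* and *GstE4*. The genes that fell are not next to each other: *GstE2*, *GstE3* and *GstE4* lie between them. Of the 9 measured genes of the cluster, 2 fell and 7 did not pass. *GstE10* and *GstE2*, the neighbours of *GstE1*, had differences of -0.39 (95% interval -1.97 to 1.19) and 0.24 (-0.28 to 0.76). *GstE4* and *GstE6*, the neighbours of *GstE5*, had differences of -0.031 (-0.29 to 0.23) and 0.07 (-0.63 to 0.77). The intervals of these neighbours apart from *GstE10* lie above those of *GstE1* and *GstE5*, while that of *GstE10* overlaps the interval of *GstE5*.

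**Figure D2:**
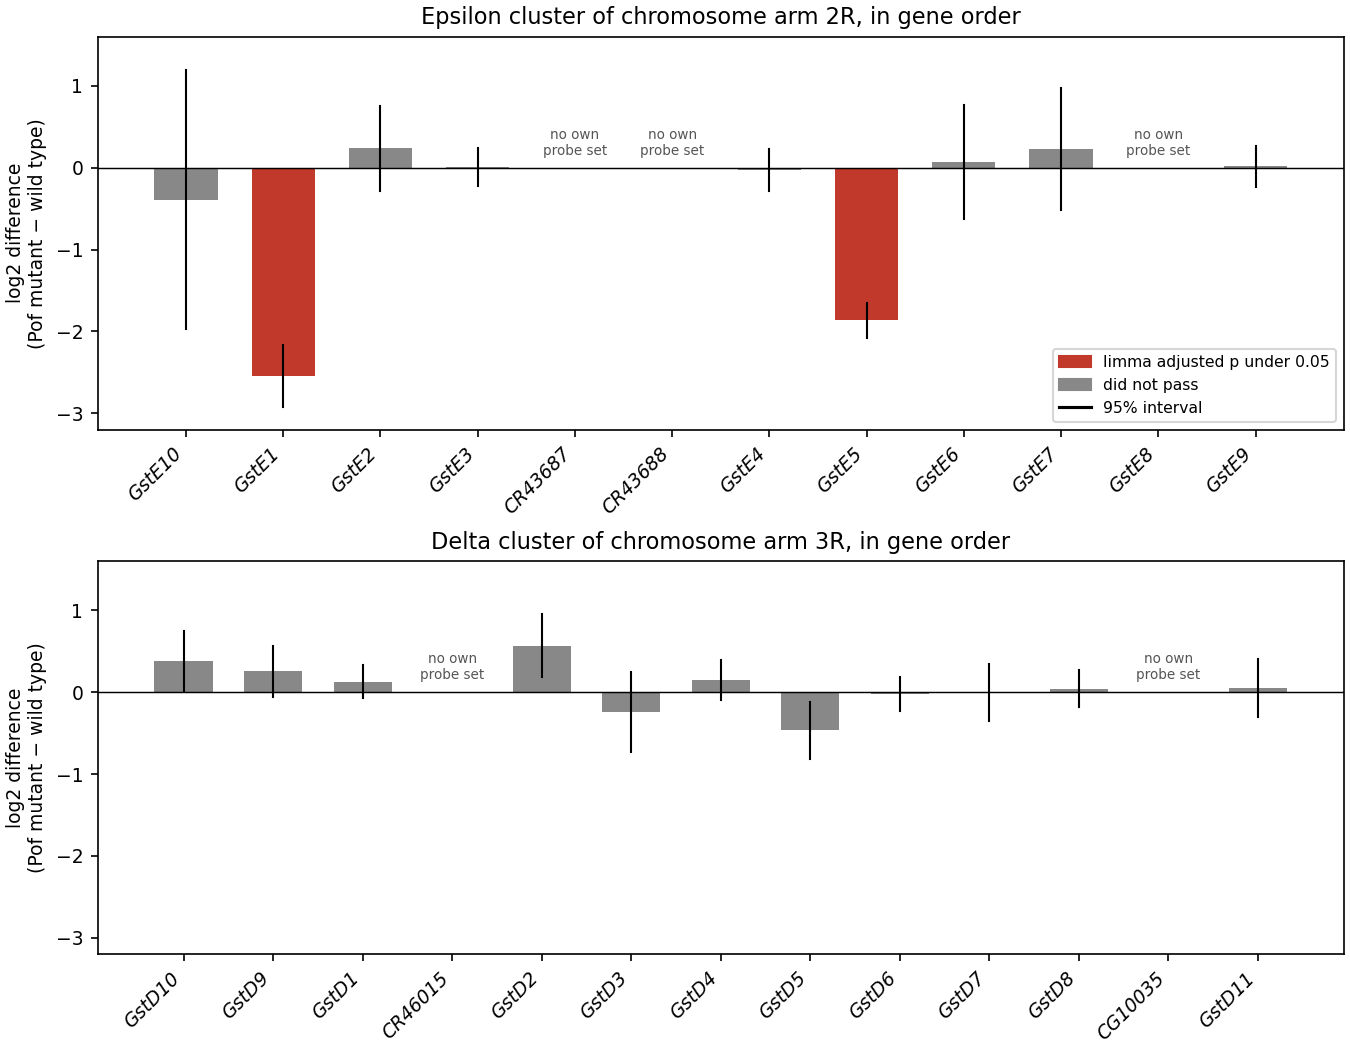
Log2 difference between *Pof* mutant and wild type testes (y axis, bars with 95% intervals from limma) for the genes of the epsilon cluster on 2R (above) and of the delta cluster on 3R (below), in the order of the genes along the arm and not to scale. The red bars of *GstE1* and *GstE5* are separated by *GstE2*, *GstE3* and *GstE4*, and no gene of the delta cluster passed.

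Among the 20 measured genes nearest to the epsilon cluster, 10 on each side, 2 passed and both were higher in the mutant. Of all genes tested 2.77% passed in either direction, and 1.27% of all genes tested passed and were higher. *Idgf5*, a chitinase-like growth factor gene and the nearest measured gene on the side of *GstE10*, had a difference of 0.81 (standard error 0.10, limma adjusted p = 0.012), with levels of 6.33, 6.41 and 6.13 on the mutant arrays, against 5.57, 5.38 and 5.50 on the wild type arrays, where it was close to background, so the size is uncertain. *CG14505*, at 9.56, 9.67 and 9.31 on the mutant arrays, against 6.98, 7.70 and 7.11 on the wild type arrays, had a difference of 2.25 (standard error 0.20, limma adjusted p = 0.0031). Both genes are named after their values were seen. None of the 20 genes nearest to the delta cluster and none of the 20 nearest to the omega genes passed. *Pof* lies on 2R as well, with 805 measured genes between *GstE9* and *Pof*. No source used here says if chromosome 2 is otherwise the same in both stocks, so the loss of *Pof* and other differences between these chromosomes cannot be told apart. Of the genes of 2R, 3.25% passed, against 2.64% of the genes of the other arms together, chromosome 4 included.

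The remaining genes of the epsilon cluster had arrays of the genotypes that overlapped. *GstE3* was at 10.34, 10.33 and 10.46 on the mutant arrays, against 10.24, 10.38 and 10.49 on the wild type arrays, a difference of 0.01. *GstE6* was at 9.87, 9.42 and 10.18 on the mutant arrays and at 9.74, 9.26 and 10.25 on the wild type arrays. For *GstE7* the mutant arrays had 8.23, 7.38 and 7.96 and the wild type arrays 7.84, 7.04 and 8.01. Both genes were lowest on the array numbered 2 of each genotype. *GstE10* showed this most, with 7.56, 6.56 and 8.07 on the mutant arrays, against 8.40, 6.37 and 8.59 on the wild type arrays. *GstE2* was close to the level of 6, at 6.24, 6.65 and 5.93 on the mutant arrays and at 5.98, 6.33 and 5.78 on the wild type arrays. *GstE4* lay below 6 throughout.

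*GstE9* had 2 probe sets. One was at 9.14, 8.95 and 9.12 on the mutant arrays, against 8.90, 8.70 and 9.33 on the wild type arrays. The arrays of both genotypes overlapped there, with a difference of 0.093. The other was close to background, at 4.41, 4.51 and 4.51 on the mutant arrays, against 4.53, 4.55 and 4.53 on the wild type arrays, without overlap and with a difference of -0.06. Neither passed in limma, and the mean of both, the level used here, gave 6.77, 6.73 and 6.81 in mutant and 6.71, 6.62 and 6.93 in wild type testes.

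Outside the cluster, 2R carries *GstE11*, *GstE12*, *GstE13* and *GstE14*. *GstE13* was at 6.86, 6.81 and 7.06 on the mutant arrays, against 7.53, 7.34 and 7.70 on the wild type arrays. The groups did not overlap, and the difference of -0.62 (standard error 0.12, 95% interval -0.91 to -0.32) missed the threshold (limma adjusted p = 0.059). It passed when the fit blocked on the replicate number (adjusted p = 0.017) and without wild type replicate 2 (-0.71, adjusted p = 0.042), and in none of the other 13 alternatives. *GstE12* was at 10.73, 10.33 and 11.03 on the mutant arrays and at 10.92, 10.14 and 11.15 on the wild type arrays, again lowest on the arrays numbered 2. *GstE11* had 7.15, 7.36 and 7.22 on the mutant arrays, against 6.99, 7.33 and 7.28 on the wild type arrays. *GstE14*, also known as *noppera-bo*, acts in the synthesis of the moulting hormone ecdysone in larvae. It was below 6 on every array, between 4.89 and 5.20, with a difference of 0.019.

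**Figure D3:**
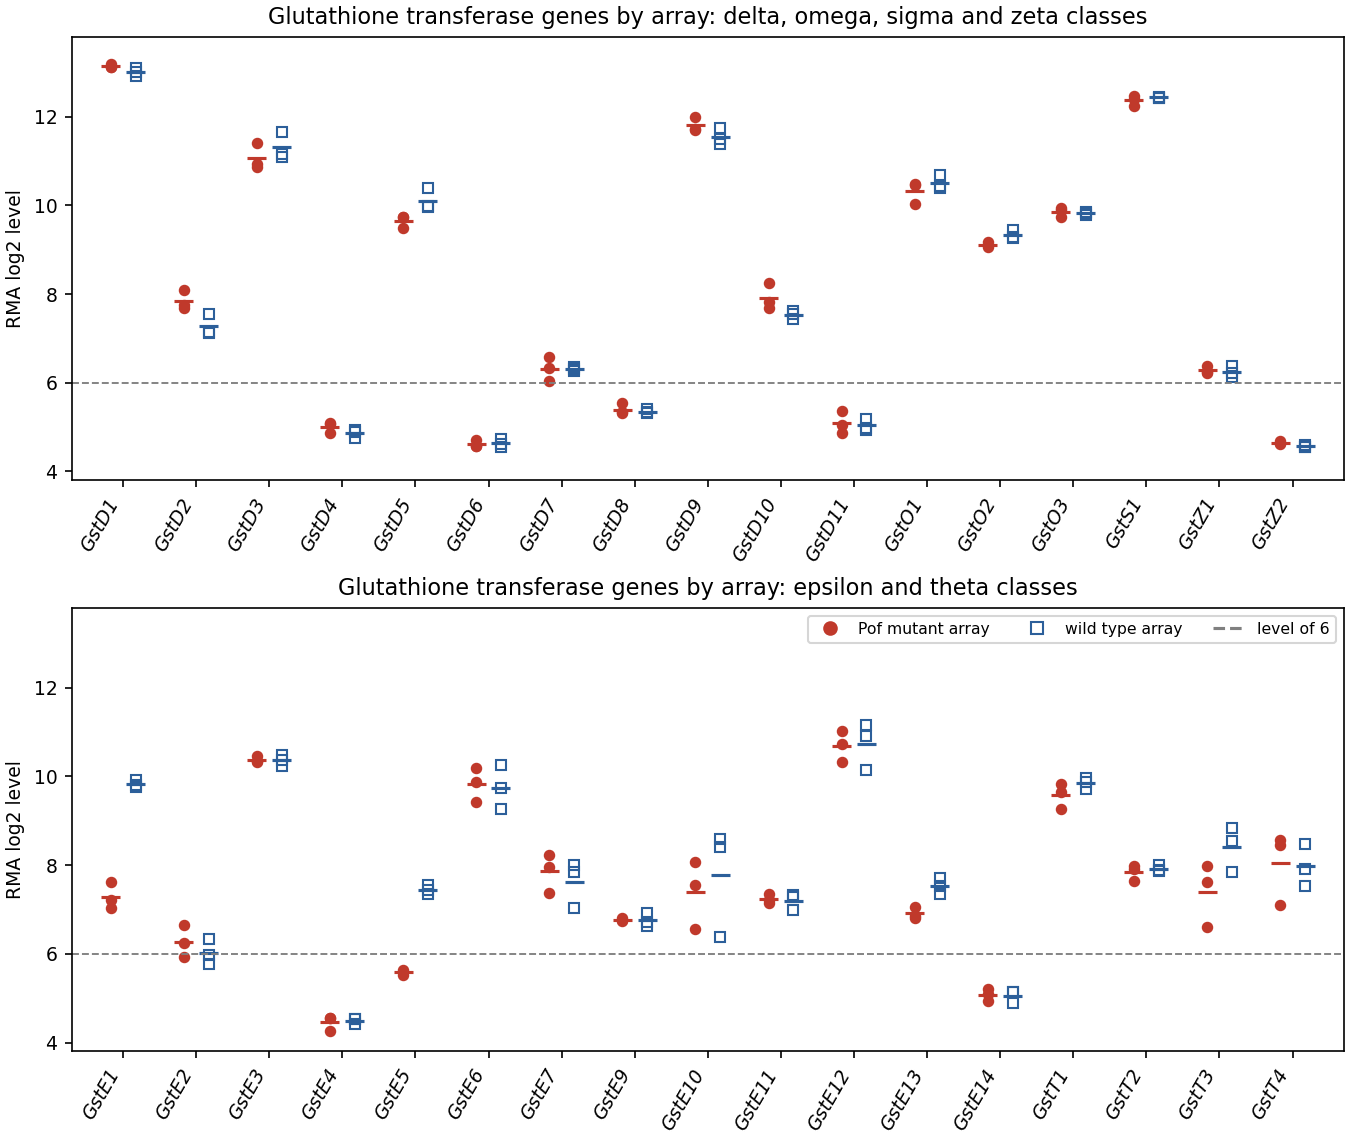
RMA log2 level (y axis) of the 34 glutathione transferase genes (x axis) on each *Pof* mutant array (red circles) and wild type array (blue squares), with the mean of each genotype as a bar and the level of 6 as a dashed line. *GstE1* and *GstE5* have mutant points well below the wild type points, and 7 genes lie below the dashed line in both genotypes.

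None of the 11 delta genes passed the test, 7 had a mean above and 4 a mean below wild type (of which *GstD6* and *GstD7* turn with the constant), and their median difference was 0.056. The class forms one cluster on 3R, in the order *GstD10*, *GstD9*, *GstD1*, *GstD2* to *GstD8* and *GstD11*, with 2 other genes inside it. *GstD1*, the best known member, breaks down the insecticide DDT and is widely used as a reporter of the oxidative stress response. It was at 13.11, 13.11 and 13.19 on the mutant arrays, against 12.91, 13.01 and 13.09 on the wild type arrays. The mutant arrays lay above the wild type arrays by a small margin, and the difference was 0.13 (95% interval -0.069 to 0.33, adjusted p = 0.571 in limma).

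*GstD2* had the largest positive difference of the family. Its levels were 7.69, 8.09 and 7.76 on the mutant arrays, against 7.14, 7.56 and 7.12 on the wild type arrays, without overlap. The difference was 0.57 (standard error 0.16, 95% interval 0.18 to 0.96), or 149% of wild type, and did not pass (limma adjusted p = 0.162). By replicate number the pairs differed by 0.55, 0.53 and 0.64, and the gene passed when the fit blocked on this number (adjusted p = 0.020). *GstD10* was at 8.24, 7.81 and 7.69 on the mutant arrays, against 7.61, 7.43 and 7.56 on the wild type arrays, also without overlap. Its difference of 0.38 (95% interval 0.0091 to 0.75) did not pass (limma adjusted p = 0.329) and was 0.21 without mutant replicate 1.

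*GstD5* went the other way, with 9.73, 9.48 and 9.73 on the mutant arrays, against 9.98, 10.38 and 9.96 on the wild type arrays. No mutant array reached a wild type array. The difference was -0.46 (95% interval -0.81 to -0.12) and did not pass (limma adjusted p = 0.197). It came to -0.25, -0.90 and -0.23 in the pairs of arrays with the same number, and to -0.24 without both arrays numbered 2. *GstD3*, its near neighbour in the cluster, was at 10.94, 11.40 and 10.86 on the mutant arrays and at 11.09, 11.66 and 11.16 on the wild type arrays, a difference of -0.24 that lay between -0.41 and -0.062 when single arrays were left out. *GstD9* had 11.69, 11.99 and 11.73 on the mutant arrays, against 11.39, 11.75 and 11.50 on the wild type arrays, a difference of 0.26. In both genes each pair of replicate numbers moved the same way while the groups overlapped, and the arrays numbered 2 were the highest of their genotype.

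*GstD7* lay just above 6, with 6.03, 6.34 and 6.57 on the mutant arrays, against 6.26, 6.32 and 6.36 on the wild type arrays. *GstD4*, *GstD6*, *GstD8* and *GstD11* had means below 6 in both genotypes, as did *GstE4*, *GstE14* and *GstZ2* of the other classes. These 7 genes lay between 4.26 and 5.54 on all arrays, with differences between -0.031 and 0.15 and adjusted p-values of at least 0.594 in limma. No change was detectable at such levels. Of the family, 26 genes (76.5%, against 60.9% of all genes) had means of at least 6 in both genotypes, and *GstE5* was the only one that was above 6 in wild type and below it in the mutant.

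The 3 omega genes lie on 3L around *sepia*, the omega class gene of red eye pigment synthesis, whose symbol *se* keeps it outside the naming rule. None of them passed. *GstO2* was at 9.17, 9.06 and 9.11 on the mutant arrays, against 9.29, 9.26 and 9.44 on the wild type arrays, without overlap, and its difference was -0.21 (95% interval -0.42 to -0.0063, adjusted p = 0.328 in limma). Its 2 probe sets, which lay at 10.86 ± 0.016 and 7.38 ± 0.13 in mutant, against 10.98 ± 0.078 and 7.68 ± 0.15 in wild type testes (SD, n = 3 each), both had a lower mean in the mutant, with differences of -0.13 and -0.30. *GstO1* had 10.45, 10.48 and 10.04 on the mutant arrays, against 10.44, 10.69 and 10.40 on the wild type arrays. *GstO3* was at 9.90, 9.73 and 9.93 on the mutant arrays and at 9.83, 9.78 and 9.86 on the wild type arrays. *se* itself was below 6 on all arrays, with means of 4.91 in mutant and 4.77 in wild type testes.

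*GstS1*, the single sigma gene, encodes an abundant enzyme of the flight muscles that acts on products of lipid peroxidation. It was at 12.39, 12.47 and 12.23 on the mutant arrays, against 12.45, 12.43 and 12.42 on the wild type arrays. The SD of the wild type arrays was 0.014, and the difference of -0.072 (95% interval -0.29 to 0.14) did not pass. The probe set is of a kind that can detect more than one transcript.

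Among the 4 theta genes, *GstT3* of the X chromosome had the largest difference. Its levels were 7.62, 6.60 and 7.97 on the mutant arrays, against 8.55, 7.84 and 8.84 on the wild type arrays. Mutant replicate 3 lay above wild type replicate 2, so the groups overlapped, while the pairs of arrays with the same number differed by -0.93, -1.24 and -0.87, all in one direction. The difference was -1.01 (standard error 0.40, 95% interval -1.98 to -0.048), or 49.5% of wild type, and did not pass (limma adjusted p = 0.316). Without mutant replicate 2 the difference was -0.62. When the fit blocked on the replicate number the standard error was 0.10 and the gene passed (adjusted p = 0.0081).

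*GstT4*, also on the X, was at 8.45, 7.11 and 8.57 on the mutant arrays, against 7.92, 7.52 and 8.48 on the wild type arrays. Pairs differed in both directions, by 0.53, -0.40 and 0.094. *GstT1* and *GstT2* are neighbours on 2R. *GstT1* had 9.64, 9.82 and 9.26 on the mutant arrays, against 9.88, 9.96 and 9.71 on the wild type arrays, a difference of -0.27 (95% interval -0.65 to 0.10). *GstT2* was at 7.92, 7.97 and 7.65 on the mutant arrays and at 7.87, 8.00 and 7.89 on the wild type arrays. Neither passed.

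The zeta class enzyme of animals is maleylacetoacetate isomerase, a step in the breakdown of tyrosine. *GstZ1* was at 6.37, 6.23 and 6.24 on the mutant arrays, against 6.14, 6.23 and 6.38 on the wild type arrays, close to the level of 6 and overlapping. *GstZ2*, its neighbour on 3R, was below 6 throughout. Its mutant arrays lay above its wild type arrays, at 4.61, 4.65 and 4.68 against 4.59, 4.56 and 4.56, a difference of 0.076 in the range of background.

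Across the family the arrays of the genotypes did not overlap for 9 genes, with the mutant arrays below in 5 (14.7%) and above in 4 (11.8%). Over all genes tested the shares were 11.4% and 9.15%, close to those of the family. For the 32 genes that did not pass, the 95% interval reached a median of 0.30 to either side of the difference on the log2 scale. In 29 of them the interval lay within 1 to either side of 0, and *GstE10*, *GstT3* and *GstT4* were the exceptions. With 3 arrays against 3 the smallest p of an exact permutation test is 0.10, so single genes were tested only in the fit across all genes.

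Some members had low levels on the arrays numbered 2 of both genotypes. *GstE6*, *GstE7*, *GstE10*, *GstE12*, *GstT3* and *GstT4* were lower by over 0.5 on the array numbered 2 than on the mean of the other arrays, in each genotype. The deviations were -0.55 to -1.40 in the mutant and -0.68 to -2.12 in wild type. These are 6 of 34 members (17.6%), against 3.98% of all genes, and the size of 0.5 was chosen after the values were seen. The arrays numbered 2 were below both other arrays of their genotype for 11 members (32.4%, against 13.0% of all genes) and above both for 11 members (32.4%, against 31.6%). They were also below both for 9 of 22 measured genes of glutathione supply and oxidative defence outside the naming rule, so low levels there were not particular to the family.

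Markers of the gut and the Malpighian tubules moved in the same arrays. All 5 measured markers, the trypsin genes *alphaTry* and *betaTry*, the maltase gene *Mal-A1*, the mannosidase gene *LManVI* and the potassium channel gene *Irk3*, were lowest on the arrays numbered 2, by -2.54 to -4.69 in the mutant and by -3.53 to -4.89 in wild type. Their mean level was 9.34, 5.60 and 9.75 on the mutant arrays, against 9.66, 5.46 and 10.35 on the wild type arrays. Of 4 measured genes of the ejaculatory duct and bulb, the bulb genes *Ebp* and *EbpII* were lowest there in both genotypes. *Gld* and *Dup99B* were lowest there in wild type, but not in the mutant. The mean levels of these gut markers overlapped between the genotypes. *GstE1* and *GstE5* had deviations of -0.39 and 0.0073 in the mutant and of 0.13 and -0.023 in wild type. *GstE1* was thus lowest on the array numbered 2 in the mutant, but not in wild type. The part of gut and tubule RNA in the levels of the 6 genes, and in those of *GstE1* and *GstE5*, was not tested.

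**Figure D4:**
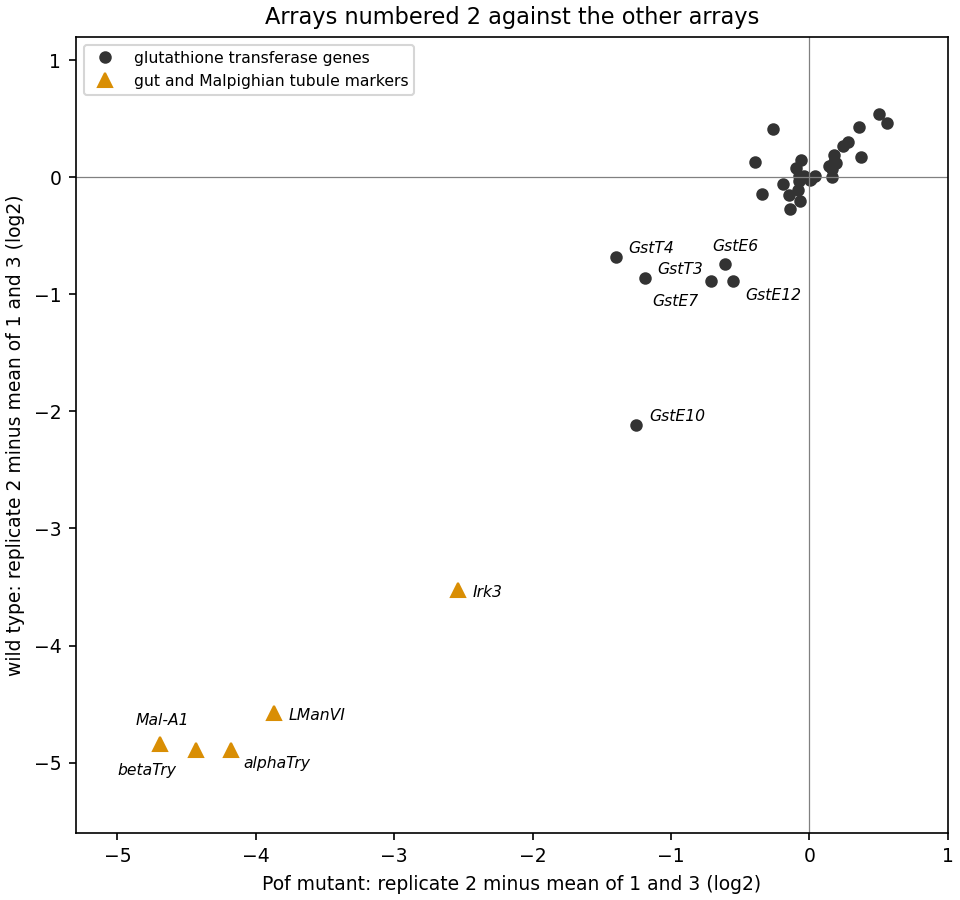
Level on the array numbered 2 minus the mean of the arrays numbered 1 and 3, in *Pof* mutant testes (x axis) and in wild type testes (y axis), on the log2 scale, for the 34 glutathione transferase genes (circles) and 5 markers of the gut and the Malpighian tubules (triangles). The labelled genes, from *GstE12* to *GstE10*, lie towards the markers in both genotypes, and most other genes lie near 0.

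None of 22 measured genes of glutathione supply and oxidative defence outside the naming rule passed, of 28 listed, against 2.77% of all genes. Their median difference was 0.077. None passed in the fit that blocks on the replicate number either, against 4.97% of all genes. Before adjustment 3 of the 22 had a p under 0.05, against 14.5% of all genes. These 3 were lower in the mutant without overlap of the arrays, with differences of -0.24, -0.50 and -0.48. The ligase subunits that make the precursor of glutathione were at 8.78, 8.24 and 8.82 on the mutant arrays, against 8.49, 8.12 and 8.66 on the wild type arrays, for the catalytic subunit *Gclc* (difference 0.19, 95% interval -0.30 to 0.68), and below 6 on all arrays for the modifier subunit *Gclm*. *cnc*, the transcription factor gene that drives many glutathione transferase genes under oxidative stress, and *Keap1*, which encodes its inhibitor, had means below 6 in both genotypes. Their differences were 0.12 and -0.017. The mean level of the list was 8.95 to 9.04 on the mutant arrays and 8.95 to 9.05 on the wild type arrays.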

How the data were processed

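The authors deposited log2 values of 18952 probe sets, made with RMA (background subtraction, quantile normalization over the arrays and one summary value per probe set); the sources used here do not give its version. RMA would remove a change shared by most genes, and it leaves unspecific binding in weak values, which understates their changes. Closely related glutathione transferase genes could share signal on a probe set, which was not tested; 34 of the 36 probe sets are of the kind designed for one transcript.

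The platform's table gave one gene for 13647 probe sets, several for 402 and none for 4903. Symbols were updated through gene identifiers, for 13544 probe sets, with the Release 6 gene table, which also gave chromosome arms and gene order; the build behind the array is not given, so no coordinates are printed. No sequences of the family were used here. Probe sets were averaged per gene, which gave 11983 genes. The paper removed genes with wild type levels below 6 and added a constant to mutant arrays; since members were taken at any level, both steps were alternatives here. Tests were made with lmFit and eBayes of limma 3.58.1 under R 4.3.3, with Benjamini-Hochberg adjustment over all 11983 genes, a threshold of 0.05 and no covariate. The fit was checked on simulated data with independent noise on each array, so the check does not cover deviations that arrays share. Figures were drawn with matplotlib 3.10.9. The number of arrays limits the precision.

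Every member is named, with its value on each array where a mean reached 6; of the other glutathione genes those that passed were to be named, with 6 of glutathione synthesis and of the control of these genes, 2 of which, *Gss1* and *Gss2*, had no probe set of their own. Members, lists and tests were chosen with earlier results of these data known.

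The labels number the replicates of both genotypes 1 to 3. The correlation across genes between same-numbered arrays, each taken relative to its genotype's mean, was 0.29, 0.86 and 0.59. The numbers were used as pairs in an alternative fit and for differences by pair, while the main fit has no block. Blocked values stand beside a result whose call they change. The correlation of mutant replicate 1 with wild type replicate 3 was higher (0.48), and that of mutant replicate 3 with wild type replicate 1 was 0.56; no source used here names a shared day or batch.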

Additional observations from a re-analysis of the deposited data

How the results depend on the processing

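In each of the 15 alternatives *GstE1* and *GstE5* passed and were lower. With the replicate number as a block 5 members passed, 1 higher and 4 lower, against 2, 0 and 2 without it; leaving out single arrays gave 2 to 3 in all, 0 higher and 2 to 3 lower, the third being *GstE13* without wild type replicate 2. The block changed no other member's call. In these fits an arm of 2 arrays is assumed to vary like the other arm. With a minimum of 6, on the wild type mean or on the mean over all arrays, 27 members were tested. Over all genes the count was 332, with 596 under the block, 134 without wild type replicate 1, 157 without mutant replicate 1, 207 without mutant replicate 2 and 191 without wild type replicate 3. The constant moved the median of all genes from 0.0027 to 0.067, and the share of higher calls from 152 of 332 to 248 of 419.

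Changes of sign were found for 17 genes that passed in no alternative, at adjusted p-values of at least 0.604. With the constant, *GstD6* was at 0.046, *GstD7* at 0.061, *GstE4* at 0.033 and *GstE12* at 0.021, and *GstD7* and *GstE12* had these values also with the minimum and the constant together. With array medians set equal the same genes were at 0.039, 0.054, 0.026 and 0.015. Without both arrays numbered 2, *GstD6* was at 0.052 and *GstE9* at -0.027. Leaving out single arrays gave ranges of -0.059 to 0.031 for *GstD6*, -0.13 to 0.14 for *GstD7*, -0.028 to 0.086 for *GstD8*, -0.086 to 0.17 for *GstD11*, -0.053 to 0.070 for *GstE3*, -0.084 to 0.069 for *GstE4*, -0.18 to 0.32 for *GstE6*, -0.066 to 0.47 for *GstE7*, -0.049 to 0.10 for *GstE9*, -1.10 to 0.026 for *GstE10*, -0.059 to 0.11 for *GstE11*, -0.34 to 0.16 for *GstE12*, -0.065 to 0.090 for *GstE14*, -0.0062 to 0.094 for *GstO3*, -0.13 to 0.026 for *GstT2*, -0.19 to 0.54 for *GstT4* and -0.029 to 0.092 for *GstZ1*. The cause was not tested.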
